A study of Mus musculus with 5 samples.

Results

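Adipocyte receptors for metabolites and hormones were followed across 5 expression arrays. The group was listed as 10 genes: the fatty acid receptor genes Ffar2 and Ffar4, the succinate receptor gene Sucnr1, the hydroxycarboxylic acid receptor genes Hcar1 and Hcar2, the β3-adrenergic receptor gene Adrb3, the corticotropin receptor gene Mc2r, the FGF21 co-receptor gene Klb, the adiponectin receptor gene Adipor2 and the growth hormone receptor gene Ghr. Every probe set that the platform annotation gives to 1 of these genes alone was taken, 14 of 45037 probe sets, and these covered 9 of the 10 genes, out of 18193 genes with such a probe set. Adrb3 was not analysed here. The genes were chosen by their differences between resveratrol and its control in part, so those differences below describe the choice and support nothing beyond it.

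Affymetrix mouse arrays were hybridised with RNA of fat cells grown from the line C3H10T1/2, which comes from mouse mesenchyme and can be differentiated in culture. Each of the 5 groups had 1 array: butein, sulfuretin and their solvent control DMSO, then resveratrol and the solvent control that the labels assign to it, DMSO1. All were exposed for 6 h, after a change of medium the day before, and every compound group is compared with a solvent group. Doses are not given in the labels, and the labels describe 1 cell line with no genetic change. There are no replicate arrays, so no difference within a comparison carries an error or a test.

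Values are linear RMA intensities, and differences are given as log2 of the treated over the control intensity. A probe set was called at a 2-fold difference, a log2 difference of 1. Butein, sulfuretin and DMSO have almost the same distribution of values, and so have resveratrol and DMSO1. The scale differs between these 2 sets, with a median intensity of 6.85 on each array of the first set, against 11.5 for resveratrol and 11.1 for DMSO1 in the second. Over single-gene probe sets, DMSO1 minus DMSO had a median of 0.35 (log2). Values are therefore set side by side only within a set, or after a joint quantile normalization of the 5 arrays. Adipocyte markers were bright: the 8 of 9 with a probe set summed to 20939 with butein, 23907 with sulfuretin and 24025 in DMSO, and to 23120 with resveratrol and 24692 in DMSO1. Macrophage and blood cell markers, which matter because Hcar2 and Sucnr1 are also known from macrophages, summed over 6 probe sets to 40.7 with butein, 41.1 with sulfuretin and 39.5 in DMSO, and to 52.7 with resveratrol and 51.3 in DMSO1. Only Csf1r among them reached the median brightness of all probe sets (8.39). Of 4 fibroblast and preadipocyte markers, 3 reached it. They summed to 979 with butein, 1080 with sulfuretin and 1104 in DMSO, and to 1145 with resveratrol and 1244 in DMSO1. The part of undifferentiated cells in the receptor values was not tested. RMA values do not reach 0, so no marker was at 0.

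Fat cells read their surroundings through these receptors. Ffar2 (short-chain fatty acids), Hcar1 (lactate) and Hcar2 (niacin and 3-hydroxybutyrate) couple to inhibitory G proteins that lower cyclic AMP and so restrain lipolysis, whereas Mc2r, which needs the accessory protein Mrap to reach the cell surface, couples to the stimulatory G protein. Ffar4 binds long-chain unsaturated fatty acids, and Klb joins an FGF receptor to form the receptor of FGF21. Adipor2 is a receptor of adiponectin, and Ghr signals through JAK2 and STAT5.

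The promoters of the 3 genes past 2-fold with resveratrol (Klb, Ffar4, Sucnr1) and of Ffar2, which was lower on both of its probe sets with every compound, are shown for these genes, which the resveratrol values below turn on. Each is the 250 bases before the transcription start in RefSeq, build GRCm38.p6, 5′ to 3′, with capitals on matches to AGGTCA (the core of sites bound by nuclear receptors such as PPARγ) or TTGCNNAA (a C/EBP core), searched on both strands.
Klb, chr5:65348161-65348410, plus strand: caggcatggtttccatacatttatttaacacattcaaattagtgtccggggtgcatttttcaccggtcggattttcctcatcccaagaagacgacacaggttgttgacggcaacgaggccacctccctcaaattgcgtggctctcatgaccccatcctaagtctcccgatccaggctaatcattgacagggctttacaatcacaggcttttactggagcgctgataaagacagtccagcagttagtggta
Ffar4, chr19:38096829-38097078, plus strand: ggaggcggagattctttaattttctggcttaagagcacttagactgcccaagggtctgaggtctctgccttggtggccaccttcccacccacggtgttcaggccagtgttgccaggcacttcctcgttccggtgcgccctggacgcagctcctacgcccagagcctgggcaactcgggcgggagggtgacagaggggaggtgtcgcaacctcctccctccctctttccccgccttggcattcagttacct
Sucnr1, chr3:60081619-60081868, plus strand: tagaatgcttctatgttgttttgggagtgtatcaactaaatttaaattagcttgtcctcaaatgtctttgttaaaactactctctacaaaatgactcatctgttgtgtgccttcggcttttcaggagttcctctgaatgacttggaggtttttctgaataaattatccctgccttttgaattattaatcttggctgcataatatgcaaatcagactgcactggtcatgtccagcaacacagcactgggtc
Ffar2, chr7:30823776-30824025, minus strand: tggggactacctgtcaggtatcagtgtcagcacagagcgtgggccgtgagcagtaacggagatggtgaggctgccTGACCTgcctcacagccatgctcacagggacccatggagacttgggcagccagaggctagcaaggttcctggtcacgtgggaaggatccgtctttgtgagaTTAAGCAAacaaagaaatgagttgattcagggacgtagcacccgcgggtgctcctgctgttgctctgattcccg
Klb, Ffar4 and Sucnr1 held neither motif in this window. The Ffar2 window, the most upstream of 4 for that gene, held 1 match to each. Of 32851 RefSeq promoter windows of this length, 14.02% held AGGTCA and 9.56% held TTGCNNAA, so a window without either is common. The GC content was 48% for Klb, 61.2% for Ffar4, 38% for Sucnr1 and 56.8% for Ffar2, against a median of 52.4% over all windows. RefSeq windows were found for 7 of the 10 genes.

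Among the fatty acid receptors, Ffar2 (NCBI gene 233079, chromosome 7) was lower with all 3 compounds on both of its probe sets. Probe set 1425216_at read 44.3 with butein and 63.2 with sulfuretin, against 82.0 in DMSO, and 35.8 with resveratrol, against 69.7 in DMSO1. Probe set 1425215_at read 37.8 with butein and 50.6 with sulfuretin, against 61.4 in DMSO, and 43.3 with resveratrol, against 81.8 in DMSO1. Among the 3 arrays of the first set, both probe sets put butein lowest and sulfuretin between butein and DMSO. The log2 differences were -0.89 and -0.70 for butein, -0.37 and -0.28 for sulfuretin, and -0.96 and -0.92 for resveratrol, just short of 2-fold. Joint quantile normalization gave resveratrol differences of -1.08 and -1.01 to DMSO1 and -1.95 and -1.23 to the other solvent array. Resveratrol thus read below both solvent arrays. Both differences use the same resveratrol array, whose values took part in the choice of the genes, so the other control is no independent check. With the other control, butein and sulfuretin did not keep their values on the jointly normalized scale. There 1425216_at differed from DMSO1 by -0.006 with butein and 0.49 with sulfuretin, and 1425215_at by -0.46 and -0.06. The probe sets thus differed in sign for sulfuretin.

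Ffar4 (NCBI gene 107221, chromosome 19) went the other way with the first 2 compounds. It read 7.32 with butein and 9.58 with sulfuretin, against 6.08 in DMSO, and 8.84 with resveratrol, against 18.4 in DMSO1. Its log2 differences were 0.27 for butein, 0.66 for sulfuretin and -1.06 for resveratrol. The single probe set is dim: with resveratrol it lay below that array's median, and on the butein array 745 probe sets shared its exact value. The resveratrol difference was -0.83 after joint quantile normalization and became 0.054 against the other DMSO array on that scale, while the butein difference became -0.54 and the sulfuretin one -0.08 against DMSO1. No direction of Ffar4 was thus independent of the control used.

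Sucnr1 (NCBI gene 84112, chromosome 3), which detects extracellular succinate, was also dim. It read 5.31 with butein and 7.02 with sulfuretin, against 7.42 in DMSO, and 10.1 with resveratrol, against 20.8 in DMSO1. The log2 differences were -0.48 for butein, -0.08 for sulfuretin and -1.04 for resveratrol. The butein value was shared by 1229 probe sets on that array, so the gene was at the crowded low end there. Resveratrol differed, once jointly quantile normalized, by -0.90 from DMSO1 and by -0.24 from DMSO, with the same sign and a smaller size. On that scale butein differed from DMSO1 by -1.32 and sulfuretin by -0.75.

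The hydroxycarboxylic acid receptors, both on chromosome 5, were lower with butein and resveratrol and nearly level with sulfuretin, each against its labelled control. Hcar1 (NCBI gene 243270) read 7.89 with butein and 9.83 with sulfuretin, against 9.57 in DMSO, and 18.4 with resveratrol, against 27.6 in DMSO1. Hcar2 (NCBI gene 80885) read 28.2 with butein and 33.0 with sulfuretin, against 33.0 in DMSO, and 39.0 with resveratrol, against 54.4 in DMSO1. Butein and resveratrol had the lower reading of their pair for both genes. The log2 differences with resveratrol were -0.58 for Hcar1 and -0.48 for Hcar2, and with butein -0.28 and -0.22. On the jointly normalized scale with the other DMSO array as control, resveratrol differed by 0.07 for Hcar1, which turned, and by -0.58 for Hcar2, which did not. Butein differed from DMSO1 there by -0.93 for Hcar1 and -0.20 for Hcar2, and sulfuretin by -0.55 and 0.02. The level reading of Hcar1 with sulfuretin thus depended on the control.

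**Figure D1:**
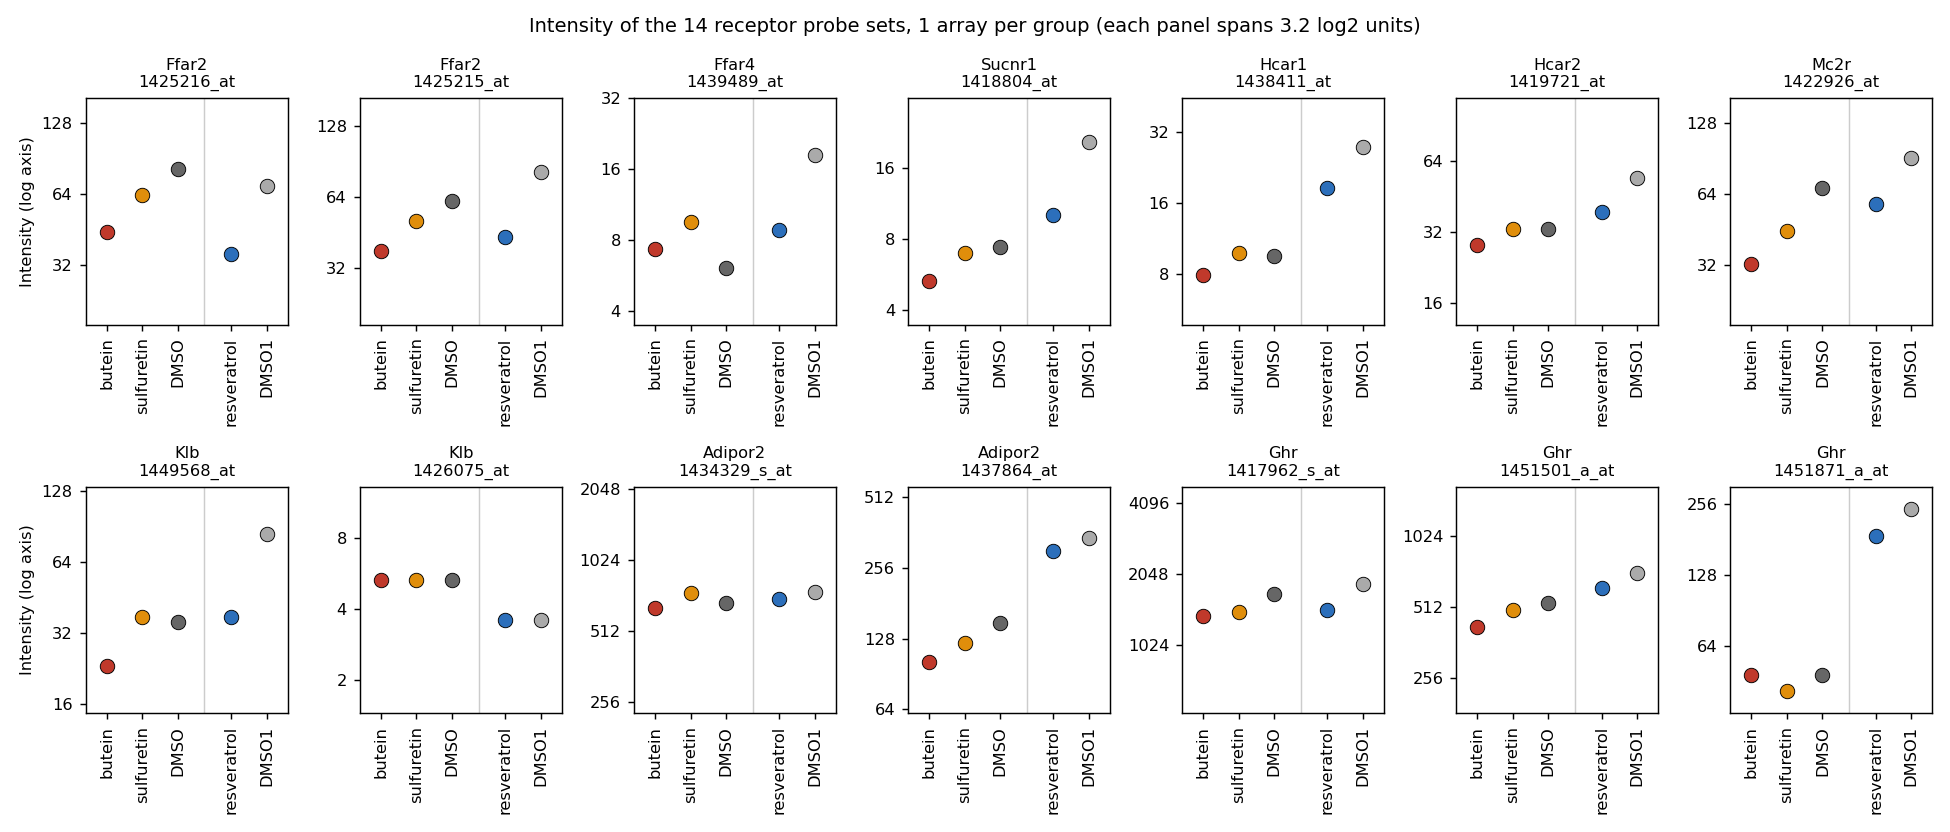
Intensity (log axis) of each of the 14 receptor probe sets on the 5 arrays, 1 point per array, with the 2 normalization sets separated by a grey line. Mc2r runs from 32.3 with butein over 44.8 with sulfuretin to 68.3 in DMSO, and Klb 1449568_at reads 37.3 with resveratrol, against 84.8 in DMSO1.

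Mc2r (NCBI gene 17200, chromosome 18), the receptor of corticotropin, was the member past 2-fold with butein. It read 32.3 with butein and 44.8 with sulfuretin, against 68.3 in DMSO, and 58.4 with resveratrol, against 90.8 in DMSO1. All 3 compounds had lower readings than their controls, by 2.11-fold for butein, 1.53-fold for sulfuretin and 1.55-fold for resveratrol. Jointly normalized differences were -1.05 for butein, -0.59 for sulfuretin and -0.71 for resveratrol, and against the other DMSO array -0.86, -0.40 and -0.90. The sign of Mc2r was thus the same under both controls for each compound. Both controls are set against the same single array of a compound, so they are no independent checks. The resveratrol and DMSO1 arrays also took part in the choice of the genes. With DMSO and DMSO1 taken as 2 samples of 1 group after that normalization, limma gave a log2 difference of -0.96 for butein. That fit has 1 butein array and 1 residual degree of freedom, so it cannot decide whether Mc2r differed. Mrap, the gene of its accessory protein, was lower in the same comparisons, with 337 for butein and 444 for sulfuretin, against 483 in DMSO, and 443 for resveratrol, against 687 in DMSO1.

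Klb (NCBI gene 83379, chromosome 5) had the lowest resveratrol difference of the 14 probe sets, and 5 of 34945 single-gene probe sets were at or below it. The resveratrol differences took part in the choice of the genes, so this rank describes the choice and supports nothing beyond it. Probe set 1449568_at read 23.1 with butein and 37.6 with sulfuretin, against 35.6 in DMSO, and 37.3 with resveratrol, against 84.8 in DMSO1. The log2 differences were -0.62 for butein, 0.08 for sulfuretin and -1.18 for resveratrol, a 2.27-fold lower reading. DMSO1 stood above the other 4 arrays, and after joint quantile normalization the resveratrol difference was -1.32 against DMSO1 but -0.75 against DMSO. On that scale butein differed from DMSO1 by -1.19 and sulfuretin by -0.52. The other Klb probe set, 1426075_at, read 5.31 with butein, sulfuretin and in DMSO, and 3.56 with resveratrol and in DMSO1. That value was shared by between 1152 and 1679 probe sets per array, so this probe set shows neither a difference nor its absence. Fgfr1, which encodes the FGF receptor that pairs with Klb, read 161 with butein and 152 with sulfuretin, against 152 in DMSO, and 171 with resveratrol, against 197 in DMSO1, differences of at most 1.15-fold.

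**Figure D2:**
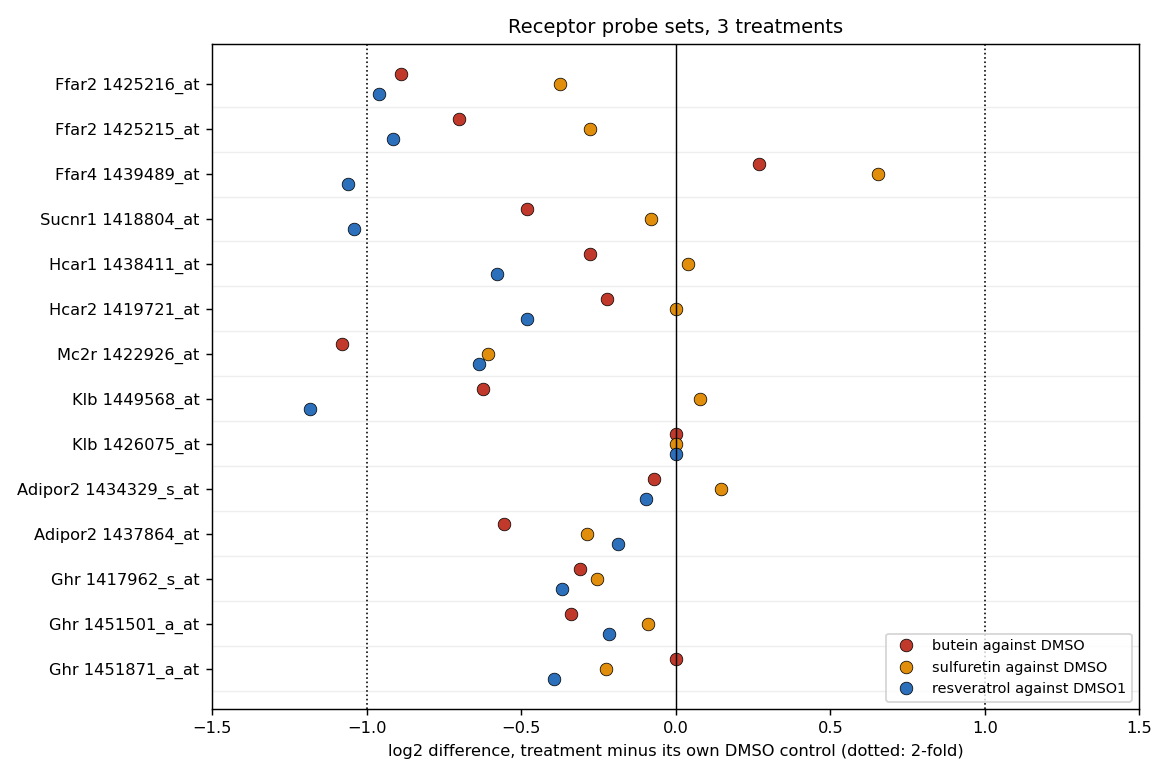
Log2 difference of each receptor probe set, treatment minus its own DMSO control, with dotted lines at 2-fold. The resveratrol points of Klb 1449568_at, Ffar4 and Sucnr1 and the butein point of Mc2r lie past the line, and no sulfuretin point does.

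Adipor2 (NCBI gene 68465, chromosome 6) differed little on its brighter probe set. Probe set 1434329_s_at read 642 with butein and 745 with sulfuretin, against 673 in DMSO, and 699.5 with resveratrol, against 748 in DMSO1. Probe set 1437864_at read 102 with butein and 122 with sulfuretin, against 149 in DMSO, and 301 with resveratrol, against 342 in DMSO1. The probe sets disagreed for sulfuretin, with log2 differences of 0.14 and -0.29, and had the same sign but unequal sizes for butein, at -0.07 and -0.55. Adipor1, the other adiponectin receptor gene, read 229 with butein and 262 with sulfuretin, against 288 in DMSO, and 507 with resveratrol, against 524 in DMSO1.

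Ghr (NCBI gene 14600, chromosome 15) was bright on 2 of its 3 probe sets and slightly lower with each compound on both. Probe set 1417962_s_at read 1361 with butein and 1411 with sulfuretin, against 1685 in DMSO, and 1435 with resveratrol, against 1851 in DMSO1. Probe set 1451501_a_at read 421 with butein and 499.6 with sulfuretin, against 532 in DMSO, and 616 with resveratrol, against 714 in DMSO1. These are differences between 1.07-fold and 1.29-fold, all downward. The third probe set, 1451871_a_at, read 48.0 with butein and 41.0 with sulfuretin, against 48.0 in DMSO, and 187 with resveratrol, against 245 in DMSO1, so the sets differed far more than the treatments within them.

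Counted over probe sets, butein had 1 of 14 members at least 2-fold lower (Mc2r) and none higher. Over all single-gene probe sets 0.232% were at least 2-fold lower and 1.21% higher in that comparison. By mean intensity, 0 of 15226 below the median brightness of all probe sets were at least 2-fold lower with butein, where 1 member lay. From there to 64, where 8 members lay, Mc2r among them, 0.412% of 11648 were. At 64 and above, where 5 members lay, 0.409% of 8071 were. Sulfuretin had none past 2-fold either way, where the shares over all were 0.0315% lower and 0.123% higher. Resveratrol had 3 lower (Klb, Ffar4, Sucnr1) and none higher, beside 0.0343% and 0.0401% over all, a count that the choice of genes used and from which nothing is read. On the jointly normalized scale 3 probe sets were again past 2-fold with resveratrol, but they were Klb and both of Ffar2, with Ffar4 and Sucnr1 short of it. The share over all on that scale was 0.0372% lower and 0.0486% higher.

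In direction alone, 11 of 14 members were lower with butein, 1 was higher and 2 were exactly equal, with a median log2 difference of -0.32, against a median of 0 over all single-gene probe sets, of which 28% were lower, 26.4% higher and 45.6% equal. For sulfuretin 8 were lower, 4 higher and 2 equal, with a median of -0.09, against 27% lower, 27.9% higher and 45.1% equal over all. For resveratrol 13 were lower and 1 equal, with a median of -0.53, against 25% lower, 26.4% higher and 48.6% equal over all. The shares over all, by probe set or by gene, are not matched to the members in brightness. Of the 34945 single-gene probe sets, 15226 lay below the median brightness of all probe sets, where equal values are common. Only 1 of the 14 members did. The contrast in direction between members and all probe sets therefore holds a difference in brightness, and its size is not read. Butein and sulfuretin share the DMSO array, and probe sets of 1 gene are not independent. By gene, on the brightest probe set, 8 of 9 were lower with butein, 4 with sulfuretin and 9 with resveratrol, against 30.2%, 28.1% and 26.2% of all 18193 genes. The resveratrol differences took part in the choice of the genes, so nothing is read from the resveratrol counts by probe set or by gene. The 8 adipocyte markers were also lower with butein in 8 of 8 (log2 differences from -0.10 for Fabp4 to -0.49 for Cidec), with sulfuretin in 3 of 8 and with resveratrol in 8 of 8 (from -0.04 for Fabp4 to -0.32 for Pparg), and their part in the receptor differences was not tested.

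**Figure D3:**
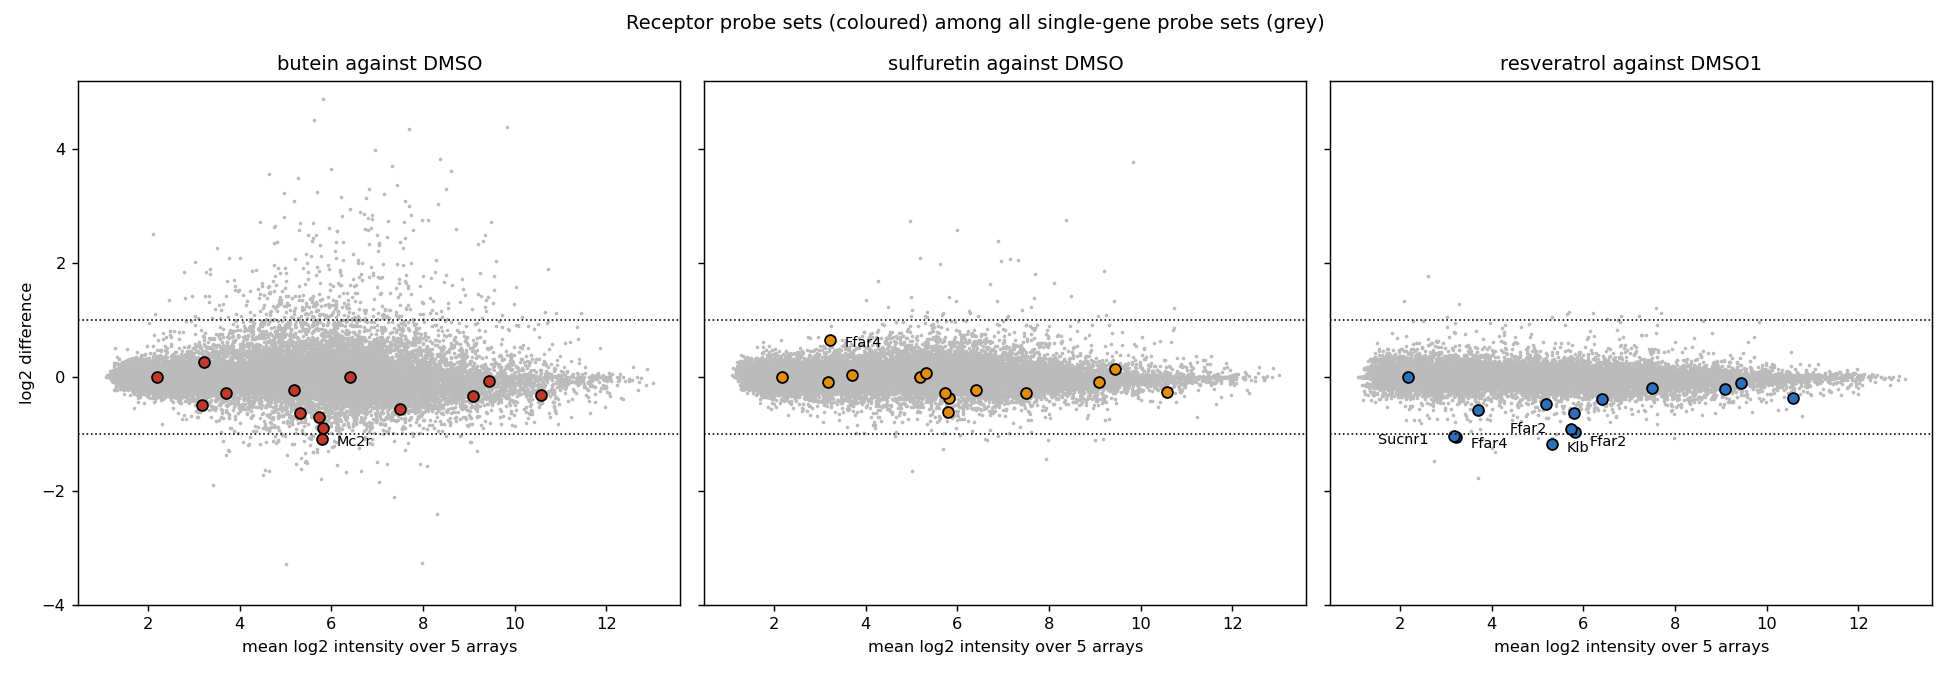
Log2 difference (vertical) against mean log2 intensity over the 5 arrays (horizontal) for all single-gene probe sets in grey and the 14 receptor probe sets in colour, 1 panel per treatment, with dotted lines at 2-fold. Under resveratrol the lowest receptor points lie at the lower edge of the grey cloud, with Klb at -1.18, while under butein Mc2r, at -1.08, lies among other probe sets past 2-fold. The resveratrol differences took part in the choice of the genes.

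Butein and sulfuretin can be set against each other within 1 set of arrays, both at 6 h and at doses not stated. Butein is a chalcone, and sulfuretin an aurone in which the bridge between the rings is closed into a further ring. Set against butein, sulfuretin gave higher readings for 12 of 14 receptor probe sets, 1 lower and 1 equal, with a median of 0.29, against a median of 0 over all, of which 28.5% were higher, 25.6% lower and 45.9% equal. None was past 2-fold (0.0572% over all were at least 2-fold higher and 0.607% lower). The difference was 0.70 for Klb, 0.51 and 0.42 for the Ffar2 probe sets and 0.47 for Mc2r. Butein and sulfuretin were the 1 pair of compounds compared directly, and the shares over all are not matched to the members in brightness. Adipocyte markers differed by 0.55 for Lipe, 0.49 for Cebpa, 0.41 for Cidec and 0.28 for Lpl. Retn differed by 0.23, Adipoq by 0.19, Fabp4 by 0.13 and Pparg by -0.23. The part of such marker differences in the receptor differences was not tested. After joint quantile normalization limma, with both solvent arrays as 1 group, gave 0.67 for Klb (95% interval -0.84 to 2.17) and 0.46 for Mc2r (-0.47 to 1.38), each with an adjusted p of 1. Those intervals hold both no difference and a 2-fold one. Resveratrol, a stilbene, lies in the other set, and its values stand beside the others above without a direct comparison.

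The solvent arrays also differed from each other. After joint quantile normalization DMSO1 minus DMSO was 0.88 for Ffar4, 0.66 for Sucnr1, 0.62 for Hcar1 and 0.57 for Klb 1449568_at, against resveratrol minus DMSO1 of -0.83, -0.90, -0.55 and -1.32. On the deposited scales 6 of 14 members were at least 2-fold higher in DMSO1 than in DMSO and 0 lower, against 18.1% and 1.24% of all single-gene probe sets. For the 4 genes named, DMSO1 stood high, and resveratrol lay nearer to DMSO than to DMSO1 in each. For Ffar2 1425216_at the solvent arrays differed by -0.87 and for Mc2r by -0.19, and resveratrol was below both of them. Resveratrol minus DMSO1 took part in the choice of the genes, which favours genes with a high DMSO1 or a low resveratrol value. Nothing is therefore read from the count of 6 of 14 or from where DMSO1 and resveratrol lay. Culture, normalization set and solvent array cannot be told apart here. In a limma fit with DMSO and DMSO1 as 2 samples of 1 group, 0 of 14 members had an adjusted p under 0.05 for any compound on either scale, and at an unadjusted p under 0.05 the jointly normalized values gave 1 lower for butein (Mc2r) and 0 for sulfuretin. Over all 34945 probe sets, that p gave 0.343% lower and 1.16% higher for butein, and 0.0544% lower and 0.137% higher for sulfuretin. No such count is given for resveratrol, since its differences took part in the choice of the genes. The solvent group of the fit holds DMSO1, an array that the choice also used, so nothing is read from the butein and sulfuretin counts either. With 1 array per compound and 1 residual degree of freedom, the limma fit cannot decide whether a member differed. The absence of calls by adjusted p therefore says nothing about the members.

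**Figure D4:**
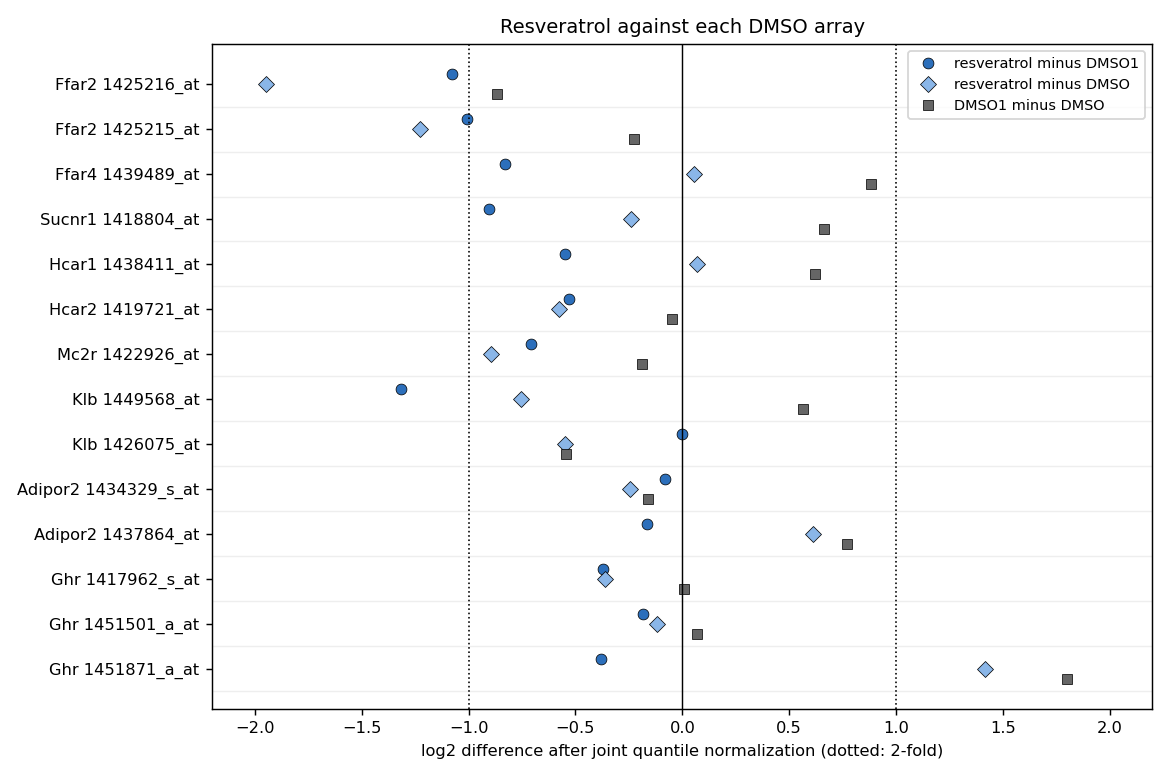
Log2 difference of resveratrol to each DMSO array, and of DMSO1 to DMSO, for the 14 receptor probe sets after joint quantile normalization. For Ffar4 the resveratrol point is at -0.83 against DMSO1 and at 0.054 against DMSO, while both resveratrol points of each Ffar2 probe set lie past -1. The differences between resveratrol and DMSO1 took part in the choice of the genes.

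In the signalling around these receptors, 1 gene passed 2-fold in 1 comparison. Of 72 listed genes 62 had a probe set, each represented by its brightest. With butein 1 was at least 2-fold higher (1.39% of all genes) and 0 lower (0.203%), and with sulfuretin and resveratrol 0 passed either way (for sulfuretin 0.132% and 0.033% of all genes, for resveratrol 0.055% and 0.044%). The gene past 2-fold was Socs3, a feedback inhibitor of JAK and STAT signalling, which read 698 with butein and 107 with sulfuretin, against 104 in DMSO, and 102 with resveratrol, against 98.2 in DMSO1. Medians over the 62 genes were 0 for each compound, as over all genes. In the growth hormone group, Igf1, a target of growth hormone, read 160 with butein and 256 with sulfuretin, against 286 in DMSO, and 247 with resveratrol, against 286 in DMSO1. Jak2 read 103 with butein, against 83.0 in DMSO, and Socs2 229, against 227.

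No gene of the G protein and lipolysis groups passed 2-fold. In the group of 22 G protein, cyclase, kinase and arrestin genes, medians were -0.06 for butein, -0.02 for sulfuretin and -0.003 for resveratrol. Gnas, which encodes the stimulatory G protein, read 1809 with butein and 1809 with sulfuretin, against 1964 in DMSO, and 2262 with resveratrol, against 2279 in DMSO1. Pde3b, which encodes a phosphodiesterase that breaks down cyclic AMP, had log2 differences of -0.25, 0.07 and -0.42 for butein, sulfuretin and resveratrol. The lipase genes Lipe and Pnpla2 differed by -0.47 and -0.26 with butein, 0.08 and -0.13 with sulfuretin, and -0.06 and 0.05 with resveratrol. In the AMPK group, which holds an energy-sensing kinase that adiponectin signalling feeds into, Prkaa1 and Prkaa2 differed by 0.57 and 0.72 with butein and by 0.72 and 0.80 with sulfuretin, against -0.21 and -0.05 with resveratrol. Set against DMSO1 after joint quantile normalization, Prkaa1 differed by 0.03 with butein and 0.20 with sulfuretin, and Prkaa2 by 0.40 and 0.47. The other 3 AMPK genes were near their control with sulfuretin, with differences of 0.09 for Prkab1, 0.02 for Prkab2 and -0.04 for Prkag1. With butein Prkab1 differed by 0.23, Prkab2 by 0.61 and Prkag1 by -0.15. Among related receptors Mc5r, another melanocortin receptor gene, differed by -0.68, -0.36 and -0.73 for butein, sulfuretin and resveratrol. It was dim with butein, at 6.39. Against the other DMSO array after joint quantile normalization Mc5r differed by -2.27, -1.78 and 0.61, so its resveratrol difference turned. Gpr35 was exactly equal in all 3 comparisons but lay below the median brightness, where equal values are common. Gpr35 thus shows neither a difference nor its absence. Mc5r, Prkaa1 and Prkaa2 were picked out after their values were seen. Adrb1, Ffar1 and Ffar3 were not analysed here.

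**Figure D5:**
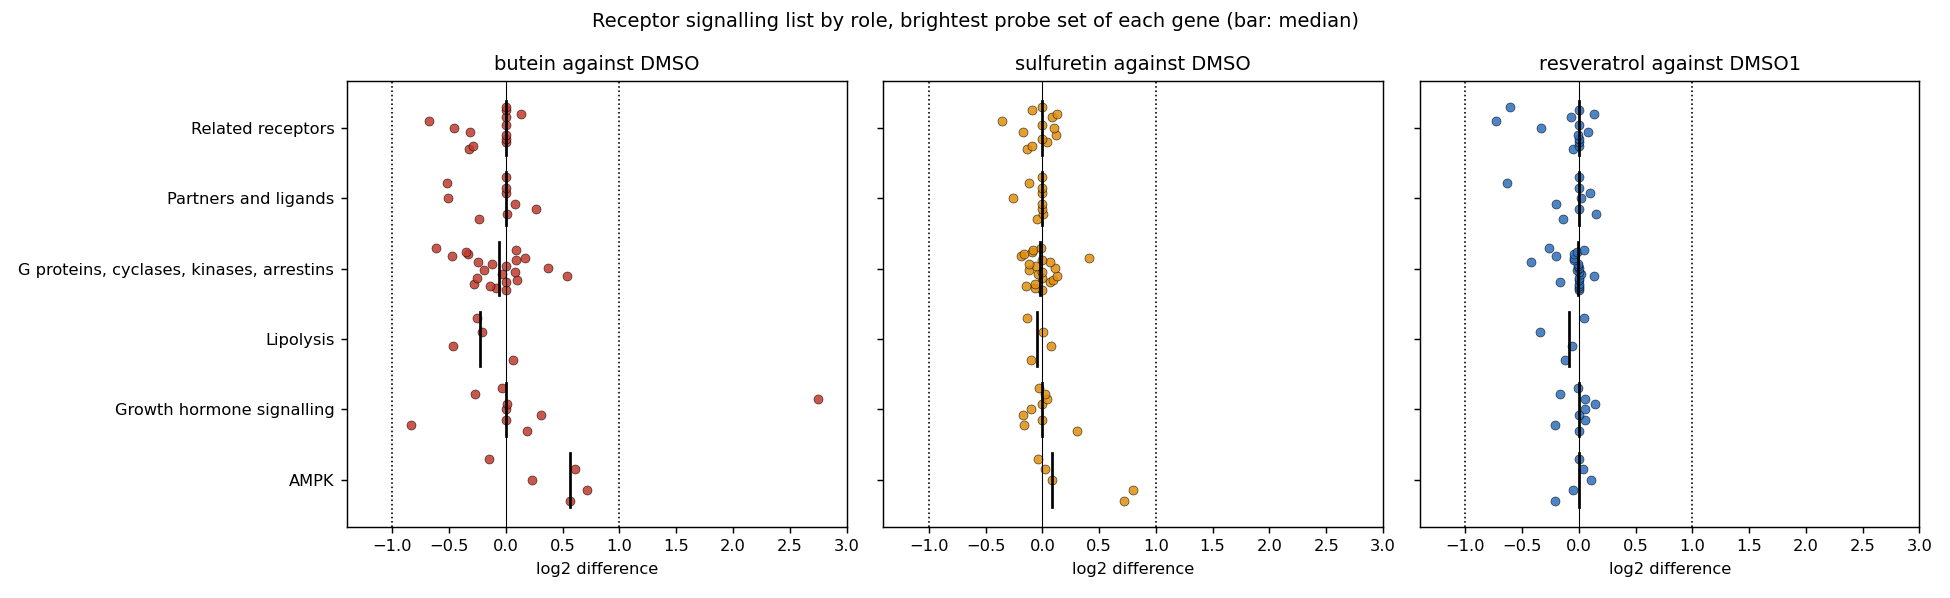
Log2 difference of the 62 signalling genes by role, 1 point per gene on its brightest probe set, with a bar at each group's median and dotted lines at 2-fold. The point past 2-fold is Socs3 with butein, at 2.74.

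The genes nearest in pattern were found by the Euclidean distance between the 3 log2 differences, among the brightest probe sets of 10845 named genes at or above the median brightness. Nearest to Klb were Sucnr1 (distance 0.26), Mtus1 (0.47) and Vsir (0.48), and nearest to Sucnr1 were Klb (0.26), Eppk1 (0.38) and Mrap (0.41). Klb and Sucnr1 were thus each other's nearest gene over these 3 differences. Ffar4 had no close match, with Sema3g, Spry4 and Tmem120a at distances of 0.72, 0.74 and 0.75. The measure rests on 5 arrays, 2 of the 3 differences share the DMSO array, and the resveratrol difference took part in the choice of all 3 genes.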

How the data were processed

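Total RNA of C3H10T1/2 adipocytes was measured on 5 arrays, 1 per group, per the labels. Per the submitters' processing notes, the authors used RMA; the RMA version is not stated there. Each deposited value is an intensity, linear by its range, from 1.40 to 9340. Log2 was taken with no pseudocount and no floor. Of 45037 probe sets, 34945 name 1 gene, 932 several and 9160 none in the platform annotation; symbols come from RefSeq's current names, matched on gene ID (34741 matched). The members and lists were chosen with earlier results of these data known. The named genes were all members, list genes past 2-fold, 15 list genes fixed by name where measured, and the 3 genes nearest in pattern to Klb, Ffar4 and Sucnr1. Equality was called within 1e-06 on the log2 scale. Alternatives were a 1.5-fold criterion, a floor at intensity 8.39, joint quantile normalization, centring, the other or both DMSO arrays as control, other probe set rules, and limma with both DMSO arrays as 1 group, with 1 residual degree of freedom, which takes each single treated array to vary as the solvent arrays do; limma was tested on simulated data. Probe sets carry no detection call here, and the number of arrays limits the precision. The software was Python 3.11.15, numpy 2.4.6, pandas 2.3.3, matplotlib 3.10.9, and, for limma 3.58.1, R 4.3.3.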

Additional observations from a re-analysis of the deposited data

How the results depend on the processing

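With joint quantile normalization and the labelled control, the brightest probe set of each member kept its direction in all 9 genes for butein and resveratrol and in all 8 with a difference for sulfuretin. With the other DMSO array as control, as deposited, 8 of 9 kept it for butein, 4 of 8 for sulfuretin and 3 of 9 for resveratrol, on scales whose median differs by about 0.34 (log2). With that array after joint quantile normalization, 7 of 9, 4 of 8 and 7 of 9 kept it. For resveratrol with the other DMSO array as deposited, Hcar1 turned to 0.95, Ffar4 to 0.54, Sucnr1 to 0.45, Hcar2 to 0.24, Klb to 0.066 and Adipor2 to 0.055. After joint quantile normalization with that array, Ffar4 turned to 0.054 and Hcar1 to 0.07. The cause was not tested. The resveratrol and DMSO1 arrays took part in the choice of the genes, so nothing is read from the counts that use either array.

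Shares in brackets are those of all single-gene probe sets, or of all genes for the list, past the same criterion in either direction. For butein, 4 receptor probe sets passed 1.5-fold (4.79%), 8 passed 2-fold with the other DMSO array (20.1%) and 4 with that array after joint quantile normalization (9.15%), all lower. With the mean of both DMSO arrays 0 passed after joint quantile normalization (2.42%) and 6 as deposited (4.24%), and 0 passed in limma on either scale. For sulfuretin, 2 passed 1.5-fold (1.17%), 6 with the other DMSO array (19%) and 2 with that array after joint quantile normalization (7.76%). With the mean of both, 1 passed after joint quantile normalization (1.15%) and 1 as deposited (3.09%). For resveratrol, 6 passed 1.5-fold (0.446%), 1 passed with the mean of both as deposited (2.86%) and 0 in limma on either scale. With the other DMSO array 3 passed, 1 lower and 2 higher (1.24% lower and 18.3% higher over all), and after joint quantile normalization 3, 2 lower and 1 higher (2.89% and 4.95%). For sulfuretin against butein, 1 passed 1.5-fold (2.45%). In the list, 1.5-fold was passed by 6 genes with butein, 3 lower and 3 higher (5.13%), by 2 higher with sulfuretin (1.2%) and by 3 lower with resveratrol (0.489%). With the other DMSO array after joint quantile normalization, 6 passed with butein, 3 lower and 3 higher (6.63%), 3 with sulfuretin, 1 lower and 2 higher (4.72%), and 2 lower with resveratrol (4.82%). The mean of both as deposited was chosen after seeing the data. Nothing is read from the resveratrol counts of members, since those differences took part in the choice of the genes. The butein and sulfuretin counts of members with the other or both DMSO arrays use DMSO1, which the choice also used. Nothing is read from those counts either. With 1 array per compound, limma cannot decide whether a member differed.

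No paired analysis was possible because each group has 1 array and the labels number no replicates. Dim probe sets share exact values with many others, which limits Ffar4, Sucnr1 and the second Klb probe set.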

Other observations

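Some adipocyte and receptor genes differed between the solvent arrays. Over the 14 receptor probe sets DMSO1 minus DMSO had a median of 0.57 as deposited, against 0.35 over all single-gene probe sets. DMSO1 took part in the choice of the genes, so no shift of the group is read from its medians. After joint quantile normalization the receptor median was 0.04, where the SD of the difference over all single-gene probe sets was 0.57. The adipocyte markers other than Fabp4 were higher in DMSO1, by the unequal sizes given below. The genes below, other than the 8 adipocyte markers, were picked after their values were seen. On that scale DMSO1 was above DMSO by 0.83 for Cebpa, a regulator of adipogenesis, by 0.75 for Cidec, a lipid droplet protein gene, by 0.77 for Lipe and 0.75 for Pnpla2, which encode lipases, and by 0.96 for Cidea, while Lpl differed by 0.47, Adipoq by 0.01, Pparg by 0.04, Retn by 0.02 and Fabp4 by -0.10. Among receptor genes, the third Ghr probe set (1451871_a_at) differed by 1.80, Mc5r by 1.41, Ffar4 by 0.88 and the dimmer Adipor2 probe set by 0.77, while Ffar2 1425216_at differed by -0.87 and Igf1r by -1.45. Each normalization set has a single solvent array.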
